A study of Mus musculus with 4 samples.

Results

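The 36 genes described here encode aminoacyl-tRNA synthetases, of which 20 make the enzymes of the cytosol and 16 those of mitochondria. They are picked out by gene name from a count table of 16591 genes, and all 36 were found in it under their current or older symbols. RNA was sequenced from a pair of mouse lymphoma cell lines, JQ1S, which is sensitive to JQ1, and JQ1R, which is resistant to it, with 2 libraries from each. JQ1 is a small molecule that keeps BET bromodomain proteins from binding acetylated histones. Both lines are of the C57BL/6 strain and carry Eμ-Myc, a transgene in which an immunoglobulin heavy-chain enhancer drives Myc in B-lineage cells. They were grown at early passage in high-glucose medium with 10% fetal calf serum, 0.1 mM L-asparagine and 50 μM 2-mercaptoethanol, and the labels name no JQ1 or other drug added before harvest. There is 1 line of each sort, so what goes with resistance and what merely distinguishes these lines cannot be told apart.

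Each synthetase joins an amino acid to its transfer RNAs, and the charged tRNA is then carried to the ribosome by an elongation factor. Mammalian cells keep separate nuclear genes for most cytosolic and mitochondrial enzymes, and several cytosolic enzymes are held together with scaffold proteins in the multisynthetase complex. Uncharged tRNA activates the kinase GCN2, which raises translation of the transcription factor ATF4, and ATF4 in turn induces genes of amino acid supply and of several cytosolic synthetases. MYC, the driver of these lymphomas, is known for raising the genes of the translation machinery.

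Total counts were 10346007 to 13048103 per library, and 1 count corresponded to 0.0770 to 0.0970 CPM (counts per 1000000 of the library total after TMM scaling). All 8 listed B-lineage markers were present, at 102 to 650 CPM, and their summed level was 2236 to 2260 CPM in the sensitive and 2342 to 2411 CPM in the resistant libraries. Of the listed markers of other cells, 1 of 5 for T cells, 1 of 4 erythroid, 3 of 5 myeloid and 0 of 4 stromal had a row in the table. The T-cell marker Cd3d, the erythroid marker Klf1 and the myeloid markers Csf1r and Mpo were at most 0.457 CPM in any library, and the myeloid integrin Itgam was the highest at up to 1.60 CPM. The myeloid markers summed to 1.16 to 1.39 CPM in the sensitive and 1.85 to 2.10 CPM in the resistant libraries, and their part in the results was not tested. These are bulk samples, so fewer cells that express a gene and less RNA per cell cannot be told apart.

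At an adjusted p below 0.05, edgeR called 0 of the 36 synthetase genes higher and 0 lower in the resistant line, where it called 3.73% of the 11945 genes tested (2.2% higher and 1.52% lower). DESeq2, which called 1.74% of all genes, and limma-voom, which called 3.69%, also called 0 members. The count was also 0 in edgeR with library size only (3.56% of all genes called), upper-quartile factors (3.57%) or DESeq2 size factors (3.68%), with no filter (2.94%), and with a filter of at least 1 CPM in 2 libraries (3.83%). All 36 passed the filter on low counts, and the smallest adjusted p among them was 0.111 (edgeR). At an unadjusted p below 0.05 edgeR gave 7 members, all with lower counts in the resistant line, against 16.9% of all genes in either direction and 7.75% in the lower direction. The classes were placed differently around 0. The median log2 change (resistant minus sensitive) was -0.08 over the 20 cytosolic and 0.06 over the 16 mitochondrial genes, beside 0.00331 over all genes tested. Log2 changes were negative for 17 of 20 cytosolic genes (16 of 20 with library size only or with upper-quartile scaling) and for 7 of 16 mitochondrial genes, against 49.1% of all genes. The plot of log2 changes by class shows this placement with the interval of each gene.

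**Figure D1:**
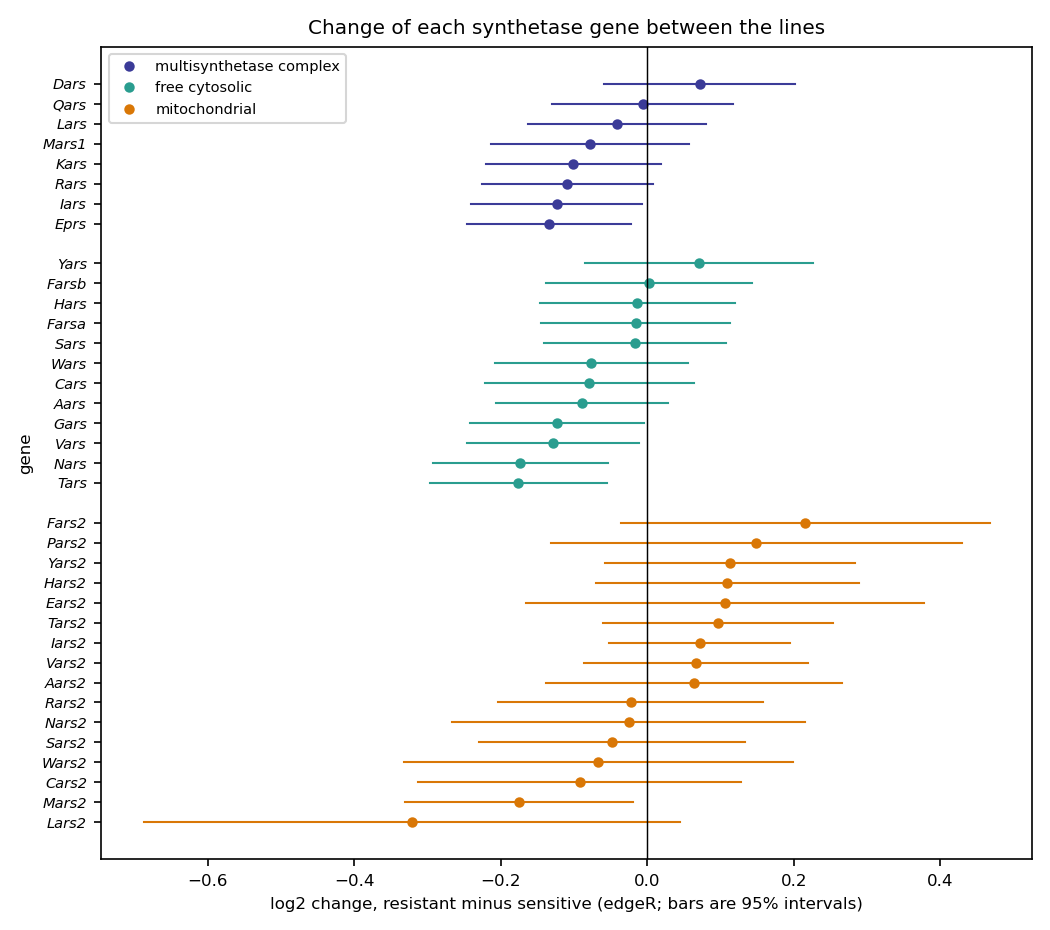
Log2 change of each synthetase gene, resistant minus sensitive (x axis, edgeR), with genes on the y axis grouped by class and bars giving 95% intervals from 2 libraries per line. Cytosolic changes lie between -0.18 and 0.07 and mitochondrial changes between -0.32 and 0.22, and 7 intervals leave out 0, all on the negative side.

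Beneath these changes the levels of the classes differed. On a scale per length (RPKM, here CPM per kilobase of merged exons), the median level was 40.5 for cytosolic and 7.93 for mitochondrial genes. The cytosolic genes with the highest levels were Vars (145 RPKM), which encodes the valine enzyme, Gars (101 RPKM), for glycine, and Kars (91.5 RPKM), for lysine. Gars and Kars each encode both the cytosolic and the mitochondrial form of their enzyme. The lowest cytosolic levels were those of Cars (12.3 RPKM), for cysteine, Yars (21.4 RPKM), for tyrosine, and Aars (27.4 RPKM), for alanine. Among mitochondrial genes Lars2, for leucine, stood far above the others at 113 RPKM, followed by Iars2 (20.9 RPKM), for isoleucine, and Yars2 (16.6 RPKM), for tyrosine. The Lars2 count varied between the resistant libraries together with those of a few other genes, whose part in it was not tested. Wars2, for tryptophan, Nars2, for asparagine, and Cars2, for cysteine, had the lowest levels, at 2.51, 2.66 and 2.73 RPKM. The order depends on which length is used. With the length of the transcript of longest coding part, Vars and Lars2 remained at the head of their classes, while Eprs, the fused glutamate and proline enzyme, moved from 34.0 to 125.4 RPKM and from rank 12 to rank 4 of the cytosolic genes.

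**Figure D2:**
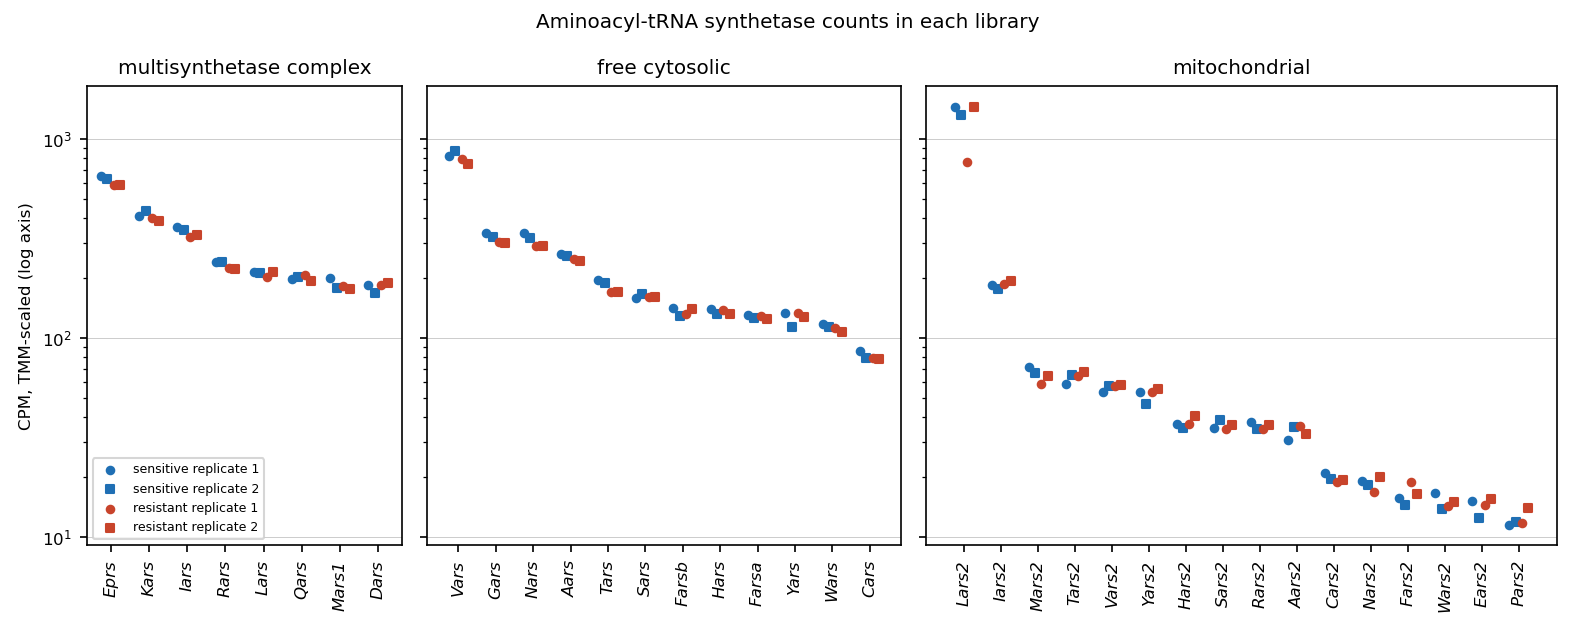
CPM of the 36 synthetase genes (log y axis) in each of the 4 libraries, with genes on the x axis ordered by mean within the multisynthetase complex, the free cytosolic enzymes and the mitochondrial enzymes. The symbols of a gene lie close together except those of Lars2, for which resistant replicate 1 stands at 764 CPM beside 1325 to 1454 CPM in the other 3 libraries.

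The cytosolic genes, summed, gave 5336 and 5248 CPM in JQ1S and 5010 and 4930 CPM in JQ1R, a mean lower by a small amount in the resistant line (a change of -6.09%). Both resistant sums lay below both sensitive sums. For 11 of the 20 genes both resistant libraries were below both sensitive ones, and for 0 of 20 were both above, against 23.3% and 24.1% of all genes tested. All genes tested had lower counts (median 29.2 against 193 CPM) and larger SEs (median 0.09 against 0.06) than the cytosolic class, so those shares are not matched for level. The sensitive libraries also differed from each other in the cytosolic genes, with a median log2 difference of -0.05 (replicate 2 minus replicate 1), beside the median of -0.08 between the lines. The median change of the class was -0.05 without sensitive replicate 1 and -0.10 without resistant replicate 1, the ends of its range over the left-out libraries.

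Promoter sequences are shown for the 5 members whose window of 300 bases (250 before to 50 after the RefSeq start, GRCm38.p6) held the core TGATGNAA of the C/EBP-ATF element, the site through which ATF4 acts on amino acid genes. Both strands were searched for it and for CACGTG, the E-box bound by MYC with MAX, and no matches in these 5 windows overlapped. Each is printed from 150 bases before the start to 30 bases from it onward, with both motifs in capitals.
Tars promoter, chr15:11399629-11399808, minus strand: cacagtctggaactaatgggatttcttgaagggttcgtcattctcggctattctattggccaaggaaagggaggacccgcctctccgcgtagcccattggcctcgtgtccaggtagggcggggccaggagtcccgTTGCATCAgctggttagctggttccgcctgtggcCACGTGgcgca
Iars promoter, chr13:49681980-49682159, plus strand: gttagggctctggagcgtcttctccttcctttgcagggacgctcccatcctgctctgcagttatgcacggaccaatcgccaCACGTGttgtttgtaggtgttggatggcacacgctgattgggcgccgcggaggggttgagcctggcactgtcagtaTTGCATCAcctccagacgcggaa
Gars promoter, chr6:55037851-55038030, plus strand: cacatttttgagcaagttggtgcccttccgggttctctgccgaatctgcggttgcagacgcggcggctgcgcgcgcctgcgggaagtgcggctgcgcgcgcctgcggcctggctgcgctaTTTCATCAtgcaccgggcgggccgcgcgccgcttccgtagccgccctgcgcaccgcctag
Aars promoter, chr8:111033692-111033871, plus strand: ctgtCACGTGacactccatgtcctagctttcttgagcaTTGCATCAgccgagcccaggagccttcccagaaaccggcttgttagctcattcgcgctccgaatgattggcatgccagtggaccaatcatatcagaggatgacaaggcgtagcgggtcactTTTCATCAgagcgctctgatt
Yars promoter, chr4:129189753-129189932, plus strand: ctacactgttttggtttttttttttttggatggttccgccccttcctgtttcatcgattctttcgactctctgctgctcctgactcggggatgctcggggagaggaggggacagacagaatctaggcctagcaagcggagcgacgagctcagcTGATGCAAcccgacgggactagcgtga
These 5 were among 13 cytosolic members with a window in the RefSeq table, while 0 of 14 mitochondrial members with a window held the core, and 3.97% of all 32851 windows did. The E-box was found in 4 cytosolic members (Iars, Aars, Tars and Farsb) and 1 mitochondrial member (Ears2), against 7.15% of all windows. Counting the start as position 0, the core began at 7 in Iars, at -112 and 9 in Aars, at -30 in Gars, at -15 in Tars and at 3 in Yars. Members not matched in that table were Cars, Hars, Lars, Nars, Rars, Vars, Wars, Hars2 and Pars2. The log2 changes of the 5 genes with the core were -0.18 (Tars), -0.12 (Iars), -0.12 (Gars), -0.09 (Aars) and 0.07 (Yars), and the 8 other cytosolic members with a window had a median of -0.02. Cytosolic members without a window could not be searched, and their log2 changes ran from -0.17 (Nars) to -0.01 (Hars). The contrast thus leaves them out, and no test of it was made. A match describes letters in a window and not a bound site.

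Of the 12 genes of cytosolic enzymes outside the multisynthetase complex, those for threonine and asparagine had the lowest changes. Tars, the threonine enzyme, stood at 196 and 190.2 CPM in JQ1S and 171 and 171 CPM in JQ1R. Its log2 change was -0.18 ± 0.06 (SE, n = 2 per line), with an adjusted p of 0.111 (edgeR) and a 95% interval of -0.30 to -0.06. Nars charges tRNA with asparagine, which the labels name as an addition to the medium of both lines. Nars stood at 337 and 319 CPM in JQ1S and 292 and 289.6 CPM in JQ1R (log2 change -0.17 ± 0.06, adjusted p = 0.113). Both genes had every resistant library below every sensitive one, and the resistant pair lay closer together than the sensitive pair. On GRCm38, Tars lies on chromosome 15 at 11382301 to 11399665 and Nars on chromosome 18 at 64499647 to 64516652.

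Vars and Gars showed the same order of lines. Vars, whose enzyme binds the elongation factor eEF1, stood at 821 and 873 CPM in JQ1S and 795 and 755 CPM in JQ1R (log2 change -0.13 ± 0.06, adjusted p = 0.241). Gars stood at 338 and 321 CPM against 305 and 300.3 CPM (log2 change -0.12 ± 0.06, adjusted p = 0.274). Aars stood at 265 and 260.0 CPM in JQ1S and 249 and 245 CPM in JQ1R, again without overlap (log2 change -0.09 ± 0.06, adjusted p = 0.446), and 15.1% of its exonic bases overlap exons of other genes. Cars stood at 86.1 and 79.9 CPM against 79.2 and 78.3 CPM, where the line means lay closer to each other than the sensitive libraries did. Wars, the tryptophan enzyme, also had both resistant libraries below both sensitive ones, by a log2 change of -0.08.

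The remaining free cytosolic enzymes lay near 0 or above it. Farsa and Farsb, the α and β subunits of the phenylalanine enzyme, had log2 changes of -0.02 and 0.00244. Farsb stood at 142 and 129 CPM in JQ1S and 132 and 141 CPM in JQ1R, so that each line held a high and a low library. Hars, for histidine, and Sars, for serine, had log2 changes of -0.01 and -0.02. Yars stood at 134 and 114 CPM in JQ1S and 133 and 127 CPM in JQ1R (log2 change 0.07 ± 0.07, adjusted p = 0.684). Its resistant libraries lay between the sensitive ones. Hars and Hars2 lie on opposite strands and overlap, with 7.97% of the exonic bases of Hars in exons of Hars2. The strand setting of the counting is not given in the sources used here, so how reads from the shared stretch were counted is not known.

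Members of the multisynthetase complex numbered 8, and 7 of them had negative log2 changes. Their summed counts were 2468 and 2424 CPM in JQ1S and 2311 and 2301 CPM in JQ1R, without overlap. Eprs, which encodes 2 synthetases in a single chain, stood at 655 and 633 CPM in JQ1S and 586 and 588 CPM in JQ1R. Its log2 change was -0.13 ± 0.05 (SE, n = 2 per line; adjusted p = 0.195, edgeR; 95% interval -0.25 to -0.02). Iars, the isoleucine enzyme, stood at 363 and 351 CPM against 324 and 332 CPM (log2 change -0.12 ± 0.06, adjusted p = 0.263). The resistant libraries were below the sensitive ones in both genes. Eprs lies on chromosome 1 at 185363044 to 185428360 and Iars on chromosome 13 at 49682100 to 49734267 (GRCm38).

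Kars and Rars, the lysine and arginine enzymes, were also separated by line. Kars stood at 410.2 and 435 CPM in JQ1S and 400.2 and 388 CPM in JQ1R (log2 change -0.10 ± 0.06, adjusted p = 0.387). Rars stood at 241 and 240.3 CPM against 224 and 222 CPM (log2 change -0.11 ± 0.06, adjusted p = 0.336), and the libraries of each line lay close together. The libraries of the lines overlapped for the leucine enzyme Lars, the glutamine enzyme Qars, the methionine enzyme Mars1 and the aspartate enzyme Dars, whose log2 changes were -0.04, -0.01, -0.08 and 0.07. Mars1 stood at 199.7 and 179 CPM in JQ1S and 184 and 176 CPM in JQ1R, with sensitive replicate 1 above the other 3. Dars had the only positive change of the complex, at 185 and 169 CPM in JQ1S and 184 and 188 CPM in JQ1R.

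The calls of cytosolic genes moved with the sensitive libraries. Without sensitive replicate 1, when 11.3% of all genes were called, edgeR called 4 members, Kars (log2 change -0.14), Vars (-0.17) and Lars2 (-0.25) lower and Yars (0.20) higher in the resistant line. Without sensitive replicate 2, when 9.68% of all genes were called, it called 8 members, all lower: Eprs (-0.16), Gars (-0.16), Iars (-0.15), Mars1 (-0.15), Nars (-0.21), Tars (-0.20), Mars2 (-0.22) and Lars2 (-0.39). In these fits the lone sensitive library is assumed to vary like the resistant pair, with spread shared over genes. For Lars2 the resistant pair stood at 764 and 1454 CPM, yet its SE was 0.043 in both fits, against 0.172 with all libraries. The calls of Lars2 thus leave out most of its own spread. Of these 11 members only Lars2 was called in both fits, and 0 cytosolic genes were called without resistant replicate 1 (2.45% of all genes called) or without resistant replicate 2 (2.21%).

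The 16 mitochondrial genes had both resistant libraries above both sensitive ones in 4 cases (24.1% of all genes tested), below in 2 (23.3%), and overlapping in 10. The share above was thus close to that of all genes. The median change of the class, 0.06 with all libraries, dropped to 0.017 when sensitive replicate 2 was left out, to 0.027 for resistant replicate 2 and to 0.031 for sensitive replicate 1. It was 0.021 without the members of which 5% or more of the exonic bases overlap other genes. Counts were lower than for the cytosolic class (median of the genes' means 36.1 against 193 CPM), and their SEs were larger, with a median of 0.09 against 0.06. The highest change was that of Fars2, the mitochondrial phenylalanine enzyme, at 15.8 and 14.5 CPM in JQ1S and 18.9 and 16.4 CPM in JQ1R. Its log2 change was 0.22 ± 0.12 (SE, n = 2 per line), with an adjusted p of 0.382 (edgeR) and a 95% interval of -0.04 to 0.47, and 10.7% of its exonic bases overlap genes on the other strand. Pars2, for proline, stood at 11.5 and 11.8 CPM against 11.8 and 14.0 CPM (log2 change 0.15 ± 0.13, adjusted p = 0.624). Here a single resistant library stood above the other 3.

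Yars2 and Hars2 came next in size. Yars2 stood at 53.8 and 46.7 CPM in JQ1S and 53.7 and 55.4 CPM in JQ1R (log2 change 0.11 ± 0.08, adjusted p = 0.516), where sensitive replicate 2 was the low library. Hars2 stood at 36.8 and 35.1 CPM against 37.0 and 40.6 CPM (log2 change 0.11 ± 0.08, adjusted p = 0.557). Iars2 was at 185 and 177 CPM in JQ1S and 186 and 194 CPM in JQ1R (log2 change 0.07), and Vars2, for valine, at 53.6 and 57.2 CPM against 57.8 and 58.0 CPM. In both, the nearest libraries of the lines lay closer to each other than the sensitive libraries did, and 24.2% of the exonic bases of Iars2 overlap exons of other genes. Beside Pars2 and Yars2, positive changes with overlapping libraries were those of Ears2, for glutamate (0.11), Tars2, for threonine (0.10), and Aars2, for alanine (0.06).

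At the low end, Mars2, the mitochondrial methionine enzyme, was at 72.0 and 67.1 CPM in JQ1S and 59.0 and 64.3 CPM in JQ1R. Its log2 change was -0.17 ± 0.07 (adjusted p = 0.234, edgeR; 95% interval -0.33 to -0.02), and its libraries did not overlap between lines. Cars2, at 21.1 and 19.6 CPM against 18.9 and 19.3 CPM, also had lower resistant libraries (log2 change -0.09 ± 0.10, adjusted p = 0.709). Wars2, at 16.7 and 13.8 CPM in JQ1S and 14.3 and 15.05 CPM in JQ1R, and Nars2, at 19.1 and 18.3 CPM against 16.8 and 19.9 CPM, overlapped. The log2 changes of Rars2, for arginine, and Sars2, for serine, were -0.02 and -0.05.

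Lars2, the mitochondrial leucine enzyme, had the lowest change of all 36 members, and it rested on a single library. It stood at 1449 and 1325 CPM in the sensitive libraries, 764 CPM in resistant replicate 1 and 1454 CPM in resistant replicate 2. The libraries of the lines overlapped, and the resistant mean of 1109 ± 488 CPM (SD, n = 2) had a spread larger than its distance from the sensitive mean of 1387 ± 87.7 CPM. With all libraries the log2 change was -0.32 ± 0.17 (adjusted p = 0.369, edgeR). It was 0.07 (adjusted p = 0.889) without resistant replicate 1 and -0.86 (adjusted p = 1.61e-16) without resistant replicate 2. In these fits a lone resistant library is assumed to vary like the sensitive pair, so the p of the second compares the low library itself with that pair. The gene lies on chromosome 9 at 123366927 to 123462666 (GRCm38), and 0% of its exonic bases overlap exons of other genes.

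The same library was low for a small set of other genes, most of them annotated as miRNA genes, and what their reads derive from was not tested. Among 6936 genes with a mean of at least 20 CPM, Lars2 ranked 3 by the size of its difference between the resistant libraries (log2 -0.93). All 10 genes at the head of that ranking were lower in resistant replicate 1, at 47.4% to 59.0% of their mean in the other 3 libraries. Beside Lars2 they were Mir6236, Mir6240, Gm23935, Gm25911, Gm24270, Gm24187 and Gm24245, all annotated as miRNA genes, the antisense transcript gene Gm15564, and the identifier ENSMUSG00000089855, which has no match in the annotation used. Mir6236 stood at 121 and 119 CPM in JQ1S and 65.6 and 126 CPM in JQ1R, and Gm15564 at 40.3 and 33.0 CPM against 21.03 and 37.8 CPM. The longest of 9 annotated Lars2 transcripts, of 3894 bases, shares an identical run of 52 bases with Gm15564 (either strand searched), at its bases 3278 to 3329. With the 7 miRNA genes none of the 9 transcripts shares a run of 20 bases, and the longest shared runs are 8 to 13 bases. Only exact runs between annotated transcripts were compared, which cannot show whether the reads come from some other shared sequence. The part of these genes' reads in the Lars2 count was not tested.

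**Figure D3:**
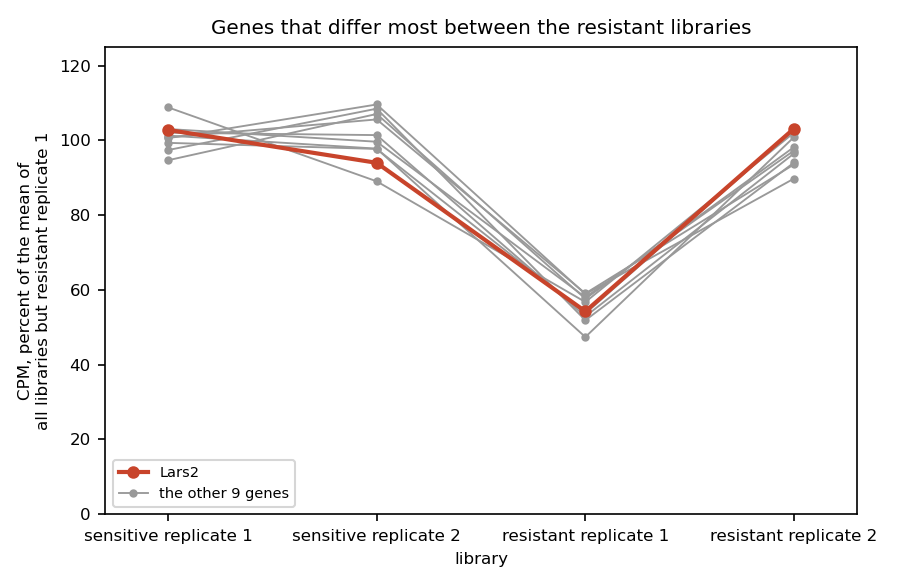
CPM of the 10 genes that differ most between the resistant libraries, by library (x axis), as a percent of the gene's mean in the 3 libraries other than resistant replicate 1 (y axis). Lars2 (red) and the other 9 genes (grey) are low together in resistant replicate 1, at 47.4% to 59.0%.

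The balance of the classes turned on Lars2. The mitochondrial genes made up 18.8% and 18.3% of the summed RPKM of all 36 members in JQ1S and 15.7% and 20.4% in JQ1R, so that the resistant libraries lay on either side of the sensitive pair. Without Lars2 the share was 10.0% and 9.98% in sensitive and 10.6% and 11.1% in resistant libraries. Those groups did not overlap, with means of 9.99% ± 0.02 and 10.8% ± 0.38 (SD, n = 2). The summed counts of the 15 other mitochondrial genes, at 663 and 648 CPM in JQ1S and 660 and 686 CPM in JQ1R, overlapped between lines. The median log2 change of the mitochondrial class was 0.07 without Lars2.

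The 2 enzymes of an amino acid can be compared within each library, where the scaling between libraries cancels. There were 17 pairs of a cytosolic and a mitochondrial gene, in which Eprs and Fars2 each entered 2 pairs, so the pairs are not independent. The cytosolic gene had the higher RPKM in 16 of 17 pairs, with a median ratio of 6.36 and a highest ratio of 26.7 for Nars over Nars2. With the length of the transcript of longest coding part it was again higher in 16 pairs, but the highest ratio was that of Eprs over Pars2 (31.1, against 8.57 on merged exons), ahead of Nars over Nars2 (23.0). The exception was leucine, where Lars was at 0.361 of the level of Lars2, and the part of other genes' reads in the Lars2 count was not tested. Between the lines, the log2 ratio was lower in the resistant line in 13 pairs, and in 9 of them the libraries did not overlap. No pair was higher without overlap. Of all single genes tested, 23.3% were lower and 24.1% higher without overlap, and no such share was computed for ratios of gene pairs.

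For isoleucine the log2 ratio of Iars to Iars2 was 1.73 and 1.74 in the sensitive and 1.55 and 1.53 in the resistant libraries. Its difference of -0.20 was smaller than that of several other pairs, such as Eprs to Ears2 (-0.26), and 24.2% of the exonic bases of Iars2 overlap other genes. For threonine the ratio of Tars to Tars2 was 1.97 and 1.77 against 1.63 and 1.57, and for proline the ratio of Eprs to Pars2 was 3.28 and 3.19 against 3.09 and 2.84. In these pairs the cytosolic gene had a negative and the mitochondrial gene a positive log2 change, and none of those passed the test. The ratio of Mars1 to Mars2 was 3.19 and 3.14 in sensitive and 3.36 and 3.17 in resistant libraries, which overlapped. The median difference over the 17 pairs was -0.14, and no test of it was made.

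**Figure D4:**
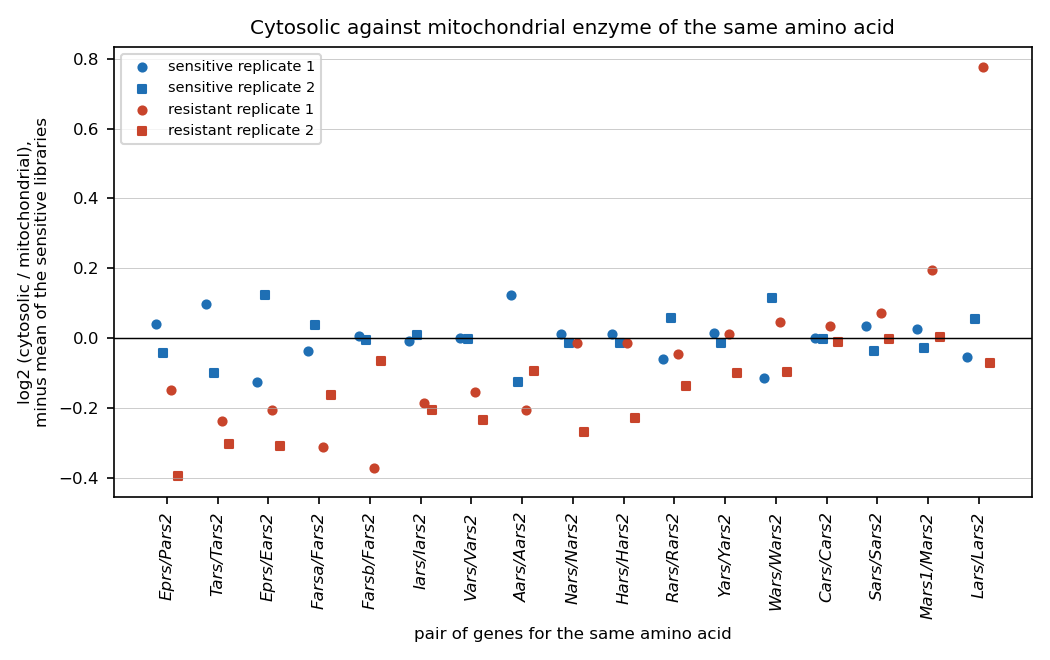
Log2 ratio of the cytosolic to the mitochondrial gene of the same amino acid in each library, after subtracting the mean of the sensitive libraries (y axis), for 17 pairs (x axis). In 9 pairs both resistant libraries (red) lie below both sensitive ones (blue), and no share over other gene pairs was computed. Lars/Lars2 shows the low Lars2 count of resistant replicate 1.

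In the genome the members are spread over 15 chromosomes. Besides Hars and Hars2, the nearest are Iars2 and Eprs, which lie 33647 bases apart on chromosome 1 on opposite strands, and had log2 changes of 0.07 and -0.13. Vars and Vars2 lie 639311 bases apart on chromosome 17, with log2 changes of -0.13 and 0.07. Of Mars1, 1.99% of exonic bases overlap Ddit3, the gene of the stress factor CHOP.

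The scaffold proteins of the multisynthetase complex, 3 in number, gave 0 calls with edgeR, with DESeq2 and with limma-voom, and 0 had an unadjusted p below 0.05 (edgeR). Aimp1 stood at 98.8 and 97.2 CPM in JQ1S and 102 and 102 CPM in JQ1R, Aimp2 at 58.4 and 61.9 CPM against 54.7 and 53.7 CPM, and Eef1e1 at 101 and 90.4 CPM against 99.5 and 94.1 CPM. Aimp2, whose protein bridges members of the complex, was the one with resistant libraries below the sensitive ones (log2 change -0.15 ± 0.07, adjusted p = 0.309). Another 10 genes of tRNA charging include the amidotransferase that makes mitochondrial glutaminyl-tRNA (Gatb, Gatc and Qrsl1). Of the 10, 0 changed with any of these tools and 1 had an unadjusted p below 0.05 in edgeR, against 16.9% of all genes. This was Pstk, a kinase of the selenocysteine route (log2 change 0.41 ± 0.16, adjusted p = 0.183). Of 6 elongation factors that receive charged tRNA or reload its carrier, 0 changed. At an unadjusted p below 0.05 (edgeR) there was 1, Eef1b2 (0.14 ± 0.06, adjusted p = 0.223), against 16.9% of all genes.

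Of 9 genes around GCN2 and the other eIF2 kinases, 1 fell and 0 rose in edgeR, against 1.52% and 2.2% of all genes. At an unadjusted p below 0.05 there were 2, both lower, against 16.9% of all genes and 7.75% in the lower direction. Impact, which encodes an inhibitor of GCN2, fell from 11.7 and 10.6 CPM to 5.94 and 8.24 CPM, a log2 change of -0.65 ± 0.16 (SE, n = 2 per line) with an adjusted p of 0.0369. DESeq2 did not call it (adjusted p = 0.343), and without resistant replicate 1 the change was -0.44 (adjusted p = 0.345). Eif2ak4, which encodes GCN2 itself, stood at 102 and 99.9 CPM in JQ1S and 88.1 and 90.03 CPM in JQ1R (log2 change -0.18 ± 0.06). Its adjusted p was 0.140 in edgeR and 0.668 in DESeq2 with all libraries. Leaving out each library in turn gave log2 changes of -0.20 to -0.16. The median over the 9 genes was -0.05.

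Of 35 listed genes of the amino acid response, 33 had a row in the table and 29 were tested. Of these, 1 rose and 0 fell in edgeR, against 2.2% and 1.52% of all genes. At an unadjusted p below 0.05 there were 9 of 29, 6 lower and 3 higher, against 16.9% of all genes. Ddit4, a stress-induced inhibitor of mTORC1, rose from 67.3 and 87.1 CPM to 116 and 121 CPM, a log2 change of 0.63 ± 0.09 with an adjusted p of 4.11e-04 (edgeR). It was called with every alternative run, at log2 changes of 0.45 to 0.82. Atf4 stood at 244 and 253 CPM in JQ1S and 235 and 232 CPM in JQ1R (log2 change -0.09 ± 0.06, adjusted p = 0.451). Asns, the asparagine synthetase and a known ATF4 target, stood at 56.1 and 51.8 CPM against 49.5 and 50.4 CPM (log2 change -0.11 ± 0.08, adjusted p = 0.472). Ddit3 was scarcely expressed, at 4.93 and 5.34 CPM against 4.11 and 5.80 CPM, and Trib3, another ATF4 target, was at 0.504 to 0.823 CPM and not tested. The median log2 change of the 29 genes was -0.08, equal to that of the cytosolic synthetases at 2 decimals. In 15 of the 29 the resistant libraries were below the sensitive ones and in 5 above, against 23.3% and 24.1% of all genes.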

How the data were processed

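The authors deposited unnormalized read counts for 16591 Ensembl genes in 4 libraries, and 0 columns were left unused. Per the submitters' processing notes, HTSeq, TopHat, Bowtie2, cutadapt 1.7, limma and FastQC were among the tools, and GRCm38 and mm10 among the builds. Strand setting, annotation release and the order of steps: not given in the sources used here. Symbols, positions and exons came from GENCODE M21 (GRCm38), which matched 16407 identifiers, and promoters from RefSeq (GRCm38.p6).

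The main test was edgeR's quasi-likelihood fit (edgeR 4.0.16, R 4.3.3) with TMM factors, the line as the only term and filterByExpr (minimum count 10, minimum total 15), which left 11945 genes. P-values were adjusted by Benjamini-Hochberg over all of them, and genes below 0.05 were called. SEs and 95% intervals derive from the quasi-likelihood F statistic. CPM use TMM-scaled library totals, RPKM divides them by merged exon length, and means are given with the SD over 2 libraries. Nothing in the labels says that replicates were separate cultures, so p-values measure only the spread between these samples.

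All 36 members are accounted for, and values per library are always given for those called under any setting or among the 3 highest or lowest of their class in change or level; values of others are given to complete a class. Related lists are given by their called genes and a few fixed ones. Pstk, Eef1b2 and the genes that vary with Lars2 were picked once their values had been seen. The members and lists were chosen with earlier results of these data known. Alternatives were other scalings, filters, DESeq2 1.42.0, limma-voom (limma 3.58.1), a replicate block and leaving out each library. The scripts were tested on simulated data with known changes.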

Additional observations from a re-analysis of the deposited data

How the results depend on the processing

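The design has 2 libraries per line at 10346007 to 13048103 counts, and this limits the detection of small changes. Scaling, filter and limma-voom left 0 synthetase genes called in either direction, as did DESeq2, which called 208 genes in all and 1 of the related lists (Ddit4) against 445 and 2 in edgeR. Leaving out each library in turn gave 270 (without resistant replicate 2) to 1381 genes (without sensitive replicate 1), 0 to 1 synthetase genes higher and 0 to 8 lower, 1 to 8 related genes (4 when sensitive replicate 1 was left out, and 8 for sensitive replicate 2), and a median log2 change of -0.11 to -0.066 for the multisynthetase complex and 0.017 to 0.078 for the mitochondrial class. The labels do not say whether same-numbered libraries were paired. Their deviations from the line means correlated at -0.0201 over genes, which cannot show how the samples were prepared. With the replicate block 595 genes (4.98%) and 1 lower synthetase gene, Lars2 (log2 change -0.39, adjusted p = 2.86e-06 in edgeR), were called. The class medians were -0.08 (cytosolic) and 0.06 (mitochondrial). For Lars2, JQ1S and JQ1R stood at 1449 and 764 CPM in replicate 1 and at 1325 and 1454 CPM in replicate 2, in opposite directions. Its SE was 0.071 with the block and 0.172 without it, so that p leaves out most of the gene's own spread. The log2 change of Qars was 0.0057 with library size only and 0.0032 with upper-quartile factors. Over the left-out libraries the sign turned for 14 members with ranges of -0.051 to 0.17 for Aars2, -0.023 to 0.27 for Ears2, -0.046 to 0.014 for Farsa, -0.064 to 0.075 for Farsb, -0.060 to 0.034 for Hars, -0.86 to 0.068 for Lars2, -0.15 to 0.0036 for Mars1, -0.16 to 0.088 for Nars2, -0.055 to 0.041 for Qars, -0.079 to 0.044 for Rars2, -0.049 to 0.014 for Sars, -0.12 to 0.016 for Sars2, -0.19 to 0.090 for Wars2, -0.039 to 0.20 for Yars. The cause of these turns was not tested. The mitochondrial share difference (resistant minus sensitive, percentage points) ranged from -2.89 to 1.82, and it was 0.844 without Lars2, an alternative chosen after seeing the data. With the strand setting not given, how reads in exons that members share with other genes were counted is not known.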
